A study of Mus musculus with 3 samples.

Results

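The miR-10 and miR-196 families are small RNAs encoded inside the Hox gene clusters. They were followed here as 6 mature strands, mmu-miR-10a-5p, mmu-miR-10a-3p, mmu-miR-10b-5p, mmu-miR-10b-3p, mmu-miR-196a-5p and mmu-miR-196b-5p, which were taken by name from a table of 1915 mature mouse miRNAs. All 6 names were in the table. The libraries came from exosomes, membrane vesicles shed into culture medium, of bone-marrow-derived macrophages of adult wild-type C57BL/6 mice. Marrow cells of the leg bones were given M-CSF, the growth factor for macrophages, for 24 h, were then kept in medium with exosome-depleted serum, and their vesicles were pelleted by ultracentrifugation after 72 h of culture. There was 1 group with 3 small RNA libraries, called libraries 1, 2 and 3, and the titles carry the abbreviation CHMP, whose meaning the labels do not give. The design holds no second condition and no library of the parent cells. Nothing in the labels ties the libraries to different mice or cultures. SDs therefore cover only how far these libraries lie apart, which may be technical, and p-values hold for these libraries alone.

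A mature miRNA loads into an Argonaute protein and represses mRNAs that pair with its seed, bases 2 to 8 from its 5′ end. Each precursor hairpin yields a 5p and a 3p strand, of which usually the better loaded is kept. Hox genes encode the transcription factors that set position along the body axis and that also act in blood stem cells and progenitors. MiR-10 genes lie beside members of the Hox4 group and miR-196 genes beside members of the Hox9 group, and in mouse embryos miR-196 directs cleavage of the Hoxb8 mRNA. In human endothelial cells miR-10a is known to restrain NF-κB signalling, and miR-196b is known from mouse blood progenitors and from leukaemias with high Hoxa gene activity.

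The mature sequences, from RefSeq on GRCm38.p6, are shown because the 5p strands of each family differ at a single base outside the seed, which decides how far their counts can be told apart. Capitals mark the seed.
mmu-miR-10a-5p: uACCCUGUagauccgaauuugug
mmu-miR-10b-5p: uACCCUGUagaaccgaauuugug
mmu-miR-10a-3p: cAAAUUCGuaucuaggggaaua
mmu-miR-10b-3p: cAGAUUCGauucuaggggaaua
mmu-miR-196a-5p: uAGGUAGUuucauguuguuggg
mmu-miR-196b-5p: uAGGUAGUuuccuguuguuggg

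With positions counted from 1 at the 5′ end, miR-10b-5p carries the substitution U12A relative to miR-10a-5p. MiR-196b-5p carries A12C relative to miR-196a-5p. The 3p strands of miR-10 differ at 3 positions, A3G, U9A and A10U from miR-10a-3p to miR-10b-3p, and the first of these lies in the seed. The 6 strands therefore hold 4 seeds. Both miR-10 5p strands share ACCCUGU, both miR-196 5p strands share AGGUAGU, and each miR-10 3p strand has a seed of its own.

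The hairpins of miR-10 are printed because both of their arms were listed among the members, and capitals mark the 5p and then the 3p strand.
Mir10a: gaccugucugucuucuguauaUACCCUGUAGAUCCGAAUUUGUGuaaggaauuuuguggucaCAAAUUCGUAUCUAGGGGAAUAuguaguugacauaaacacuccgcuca
Mir10b: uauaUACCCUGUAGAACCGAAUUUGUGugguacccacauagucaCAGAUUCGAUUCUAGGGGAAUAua

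Each hairpin lies within a Hox cluster in the GENCODE annotation of GRCm38, the assembly of the mm10 build that the submitters name. Mir10a, at chr11:96317165-96317274 on the plus strand, overlaps no other annotated gene and ends 993 bases before the start of Hoxb4. Mir10b, at chr2:74726070-74726137 on the plus strand, lies in introns of Hoxd4 and Hoxd3 on the same strand. Mature miR-196a-5p is encoded by 2 genes in identical sequence, so its counts cannot be divided between the loci. Mir196a-1, at chr11:96265164-96265265 on the plus strand, overlaps no other gene and ends 6192 bases before Hoxb9. Mir196a-2, at chr15:102973350-102973434 on the plus strand, lies in an intron of a long Hoxc5 transcript, between Hoxc10 and Hoxc9. Mir196b, at chr6:52230081-52230165 on the minus strand, overlaps an exon of the annotated Hoxa9 gene and lies 1032 bases from Hoxa10.

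**Figure D1:**
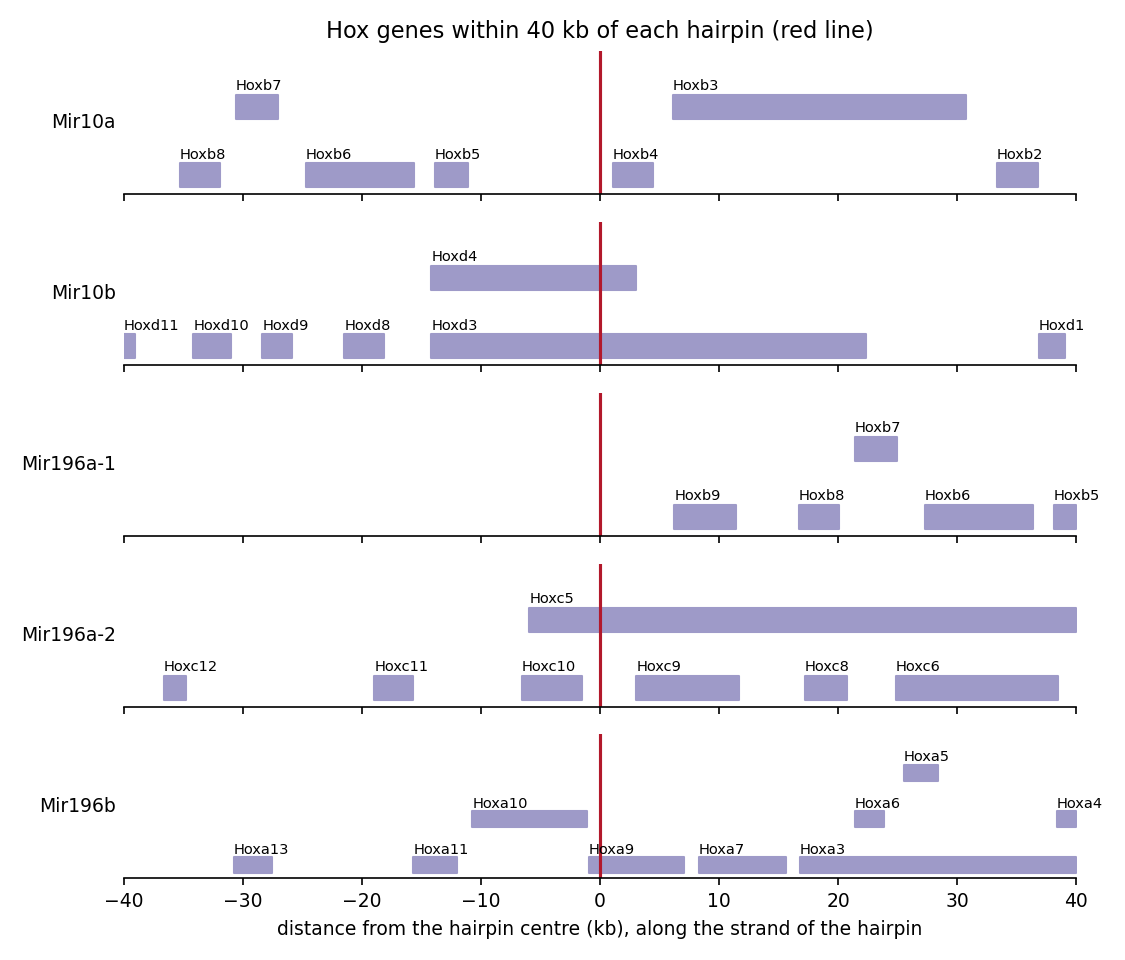
Hox genes (bars) around each hairpin (red line), with distance from the hairpin centre in kb on the horizontal axis, along the strand of the hairpin, and 1 row of bars or more for each hairpin so that overlapping genes stay apart. Mir10a sits just before Hoxb4, Mir10b and Mir196b lie inside annotated Hox genes, and Mir196a-2 lies inside the long annotated span of Hoxc5.

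The libraries held 3008995, 2489984 and 3208617 counts of mature miRNAs, and levels are given as counts per 1000000 of these (CPM). The limit that 0 counts allows, taken as 3 counts, was 0.997, 1.205 and 0.935 CPM in libraries 1, 2 and 3. These limits and the intervals below cover counting error only, since the counts carry no molecular identifiers. Of 7 miRNAs that mark macrophages and their myeloid relatives, 7 had at least 10 counts in every library, and their sum was 7.13%, 34.5% and 30.02% of counts. MiR-21a-5p carried the difference in that sum, and the other 6 summed to 33995, 39742 and 38679 CPM. Nearly all of the latter was miR-146a-5p, at 33400.9, 35012.3 and 36542.5 CPM, so its evenness does not extend to each marker. MiR-142a-3p had 42.9, 1364 and 819 CPM and miR-155-5p 74.8, 2388 and 829, whereas miR-342-3p had 149, 106 and 65.4. MiR-142a-5p had 292, 818 and 390 CPM. MiR-223-3p was low in every library, at 35.6, 52.6 and 33.0 CPM (ranks 183, 145 and 157), so the large sum does not describe the whole list. Of the 7, 5 were lowest in library 1 and 2 in library 3, and some of the results that rest on library 1 are given without it as well.

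MiR-10a-5p carried nearly all of the family signal and was among the abundant miRNAs of the exosomes. It had 30804, 14852 and 43822 counts in libraries 1, 2 and 3, or 10237, 5965 and 13658 CPM. Library 3 was the highest and library 2 the lowest, 2.29-fold apart. The Wilson 95% intervals, 10124 to 10352, 5870 to 6061 and 13531 to 13785 CPM, did not overlap. The mean was 9953 ± 3854 CPM (SD, n = 3), which placed miR-10a-5p 21st among all miRNAs by mean. Within libraries it ranked 20, 25 and 13. Its immediate neighbours were miR-532-5p and miR-191-5p in library 1, miR-25-3p and miR-103-3p in library 2, and miR-92a-3p and miR-30d-5p in library 3.

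Together the 6 strands took 1.04%, 0.605% and 1.38% of miRNA counts, a mean of 1.01% ± 0.389 (SD, n = 3). MiR-10a-5p made up 98.3%, 98.5% and 98.9% of that sum. The other 5 strands together reached 182, 89.6 and 147 CPM. Of the 6 strands, 3 had at least 10 counts in every library, namely both strands of miR-10a and miR-10b-5p. The other 3 had 0 counts in at least 1 library.

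The next strands in order were miR-10b-5p, which in human breast cancer cells is known for repressing HOXD10, and miR-10a-3p, the partner strand of miR-10a-5p. MiR-10b-5p had 154, 114 and 385 counts, or 51.2, 45.8 and 120 CPM, in libraries 1, 2 and 3. It was highest in library 3, and its intervals in libraries 1 and 2 overlapped, at 43.7 to 59.9 and 38.1 to 55.0 CPM. MiR-10a-3p had 394, 95 and 57 counts, or 131, 38.2 and 17.8 CPM, and was highest in library 1. The means of 72.3 ± 41.4 CPM for miR-10b-5p and 62.3 ± 60.3 CPM for miR-10a-3p (SD, n = 3 each) differed by less than their spread. Their order was not the same in every library, since miR-10a-3p was the higher in library 1, miR-10b-5p was the higher in library 3, and their intervals overlapped in library 2. Without library 1 the mean of miR-10a-3p was 28.0 CPM.

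MiR-196b-5p and miR-10b-3p were near or under the limit of detection, and miR-196a-5p was low but above it in libraries 2 and 3. MiR-196a-5p had 0, 12 and 28 counts in libraries 1, 2 and 3, or 4.82 and 8.73 CPM in the libraries where it was seen. With 3 counts taken for library 1, these levels were at least 4.83-fold and at least 8.75-fold higher. With the counting error of both libraries included, the exact 95% lower limits of the ratio to library 1 were 3.36-fold for library 2 and 6.66-fold for library 3. Its mean of 4.52 ± 4.37 CPM (SD, n = 3) was 2.41 CPM without library 3 and 6.77 CPM without library 1. MiR-196b-5p had 2 counts in library 2, 0.803 CPM with a Wilson interval of 0.220 to 2.93, and 0 counts in libraries 1 and 3. MiR-10b-3p had 1 count in library 3, 0.312 CPM with an interval of 0.0550 to 1.77, and 0 counts in libraries 1 and 2. The levels of miR-196b-5p and miR-10b-3p could not be told apart at this depth.

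**Figure D2:**
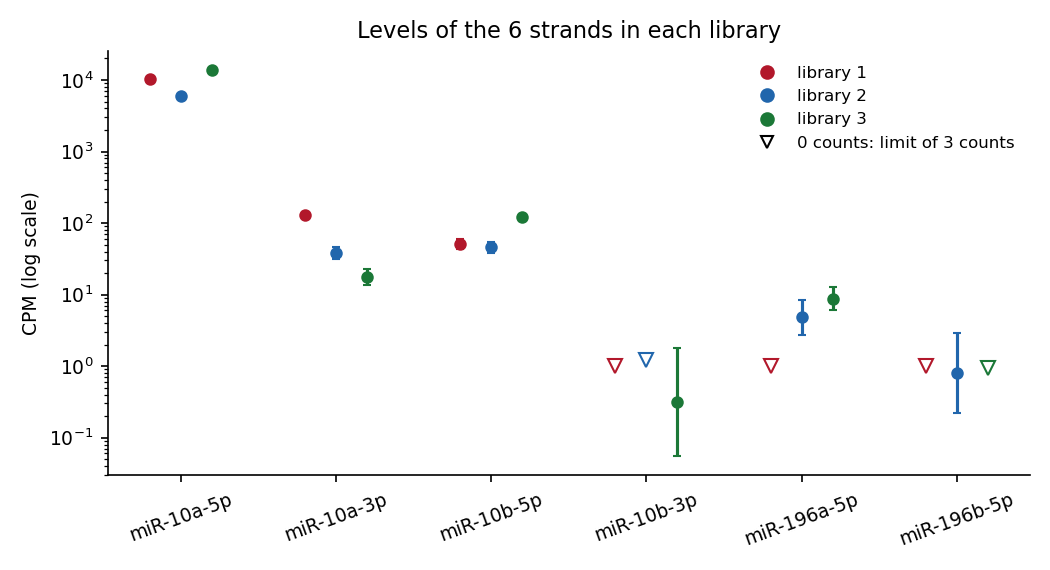
CPM of each strand on a log axis, with 1 point for each library and Wilson 95% intervals. Open triangles stand at the level of 3 counts for strands with 0 counts. MiR-10a-5p lies between 5965 and 13658 CPM, miR-10b-5p and miR-10a-3p between 17.8 and 131 CPM, and the remaining 3 strands at or below 8.73 CPM.

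**Figure D3:**
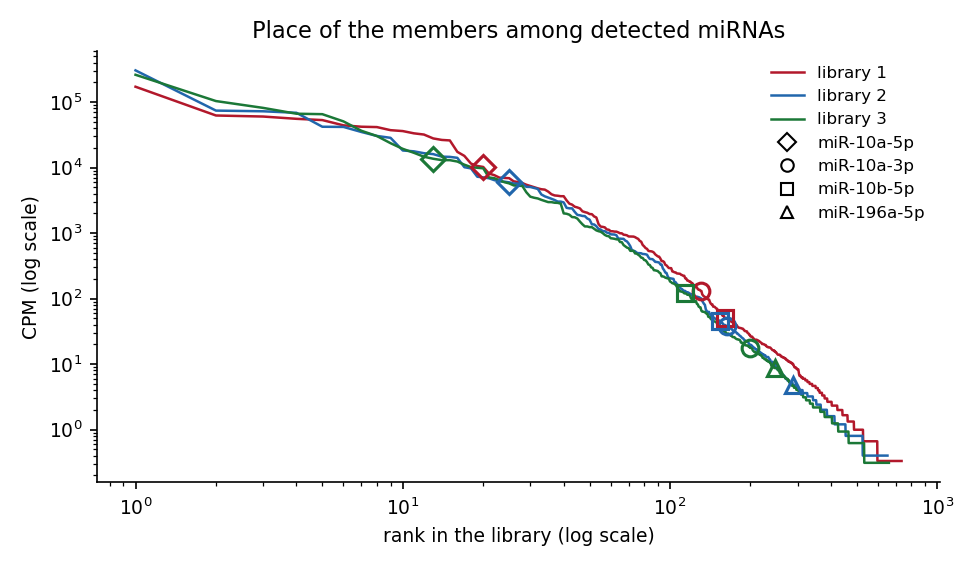
CPM of every detected miRNA against its rank in its library, both on log axes, with 1 line for each library and open symbols for the 4 strands with the most counts. MiR-10a-5p stands at ranks 20, 25 and 13, and miR-10b-5p and miR-10a-3p between ranks 114 and 199.

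Both miR-10 hairpins were represented almost entirely by their 5p strand. For miR-10a the 5p strand had 78.2 times the counts of the 3p strand in library 1 (exact 95% interval 70.8 to 86.6), 156 times in library 2 (128 to 193) and 769 times in library 3 (593 to 1015). For miR-10b the 3p strand had 0 counts in libraries 1 and 2, so the 5p strand was at least 51.3-fold and at least 38-fold higher there when 3 counts are taken for the 3p strand. The exact 95% lower limits of these ratios were 41.2 and 30.4. In library 3 the 5p strand of miR-10b had 385 counts and the 3p strand 1, a ratio of 385 with an exact 95% interval of 68.7 to 15246. The 5p strand was thus the higher of the pair in every library for both hairpins. Whether some miR-10b-5p counts were misread miR-10a-5p, which differs at a single base, was not tested. The ratios of miR-10b are uncertain to that extent.

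In edgeR's quasi-likelihood test over 157 precursors with both arms listed, miR-10a had a log2 ratio of 5p to 3p of 7.67 (SE 1.02, adjusted p = 2.75e-12). MiR-10b had 9.02 (SE 1.47, adjusted p = 7.79e-09), a fitted value that depends on edgeR's prior count because its 3p strand was nearly absent. The SEs were worked back from the F statistics. The 5p arm was called higher for 41.4% of the 157 precursors, and 80.3% were called in either direction. Ranked from the highest signed log2 ratio, with 3p-biased precursors last, miR-10b and miR-10a stood at places 22 and 36 of 157. A 5p bias this strong was thus found in other precursors too, and the place of miR-10b rests on its fitted value. The log2 ratio of miR-10a was 6.79 without library 3 and 8.42 without library 1, with the same call. That of miR-10b without library 3 has no measured denominator, since its 3p strand had 0 counts in libraries 1 and 2, and is not given as a ratio. MiR-196b, with 2 counts in all, was under the summed count of 60 that the test required. The 3p strands of the miR-196a genes have names with a gene copy number and were therefore not matched to miR-196a-5p.

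**Figure D4:**
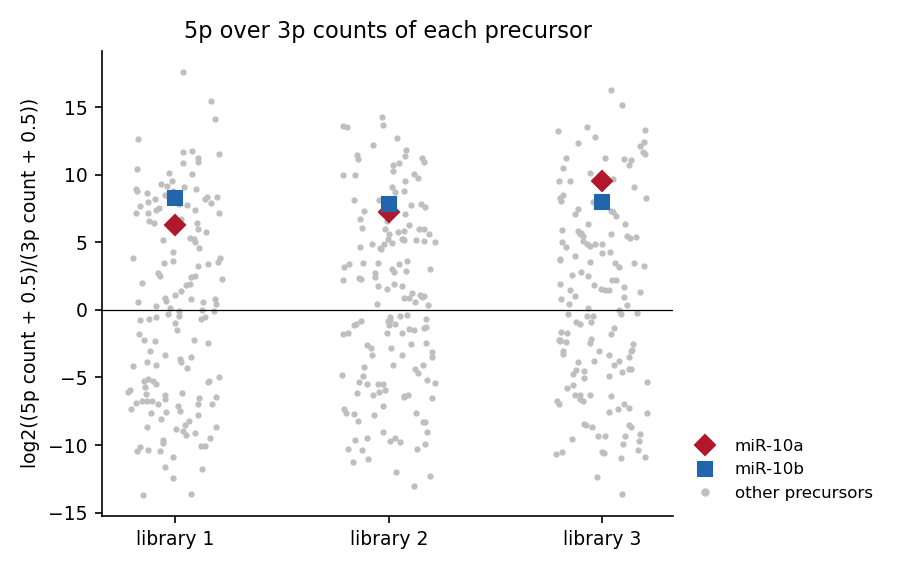
Log2 ratio of 5p to 3p counts, with 0.5 added to each, for the 157 tested precursors in each library (grey points, spread sideways at random). MiR-10a (diamonds) and miR-10b (squares) lie above 0 in all 3 libraries, and miR-10a is lowest in library 1 and highest in library 3.

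The strand balance of miR-10a itself differed among the libraries. The 3p strand made up 1.26% of miR-10a counts in library 1 (exact 95% interval 1.14 to 1.39), 0.636% in library 2 (0.515 to 0.776) and 0.130% in library 3 (0.0984 to 0.168), and these intervals did not overlap. This comparison is made within a library and does not depend on how libraries are scaled to each other. A chi-square test of the 5p and 3p counts across libraries, added after the values were seen, gave an adjusted p of 2.91e-84 for miR-10a. It called 87.4% of the 95 precursors tested, so a strand balance that differed by more than counting error was the common case. Without library 1 it called 44 of 80, and miR-10a stayed among them, with an adjusted p of 8.19e-25. The log2 ratio of miR-10a spanned 3.29 between libraries, against a median span of 2.22 over the 95, and stood at place 27. The minor strand was highest in library 1 for 40 of the 95 precursors, for 27 in library 2 and for 28 in library 3.

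MiR-10a-5p exceeded its near-identical relative miR-10b-5p by more than 100 times in every library. The ratio of miR-10a-5p to miR-10b-5p counts was 200.03 in library 1 (exact 95% interval 171 to 236), 130 in library 2 (108 to 158) and 114 in library 3 (103 to 126). The mean log2 ratio was 7.17 ± 0.42 (SD, n = 3), and the exact two-sided sign-flip permutation test over the libraries gave p = 0.25, the smallest value that 3 libraries allow. The ratio in library 1 lay above the intervals of libraries 2 and 3. Set against its relative, miR-10b-5p had 0.4999%, 0.768% and 0.879% of the counts of miR-10a-5p.

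Since miR-10b-5p differs from miR-10a-5p at a single base, its share was placed beside those of other such pairs. The table held 13 pairs of equal length that differ at 1 base and whose higher member had at least 1000 counts in every library. In 4 of them the lower member stayed under 2% of the higher in all libraries. MiR-10b-5p was one of these lower members, and the others were miR-106a-5p beside miR-17-5p (0.226%, 0.204% and 0.116% in libraries 1, 2 and 3), miR-100-5p beside miR-99a-5p (0.547%, 0.681% and 0.712%), and miR-29c-3p beside miR-29a-3p (0.356%, 0.686% and 1.29%). In the remaining 9 pairs, some of which share a let-7 member, the mean share was between 4.73% and 57.5%. How many of the miR-10b-5p counts came from misread miR-10a-5p molecules was not tested, and no source used here gives the authors' limit on mismatches. The counts of miR-10b-5p are therefore uncertain in a way that those of miR-10a-5p are not.

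**Figure D5:**
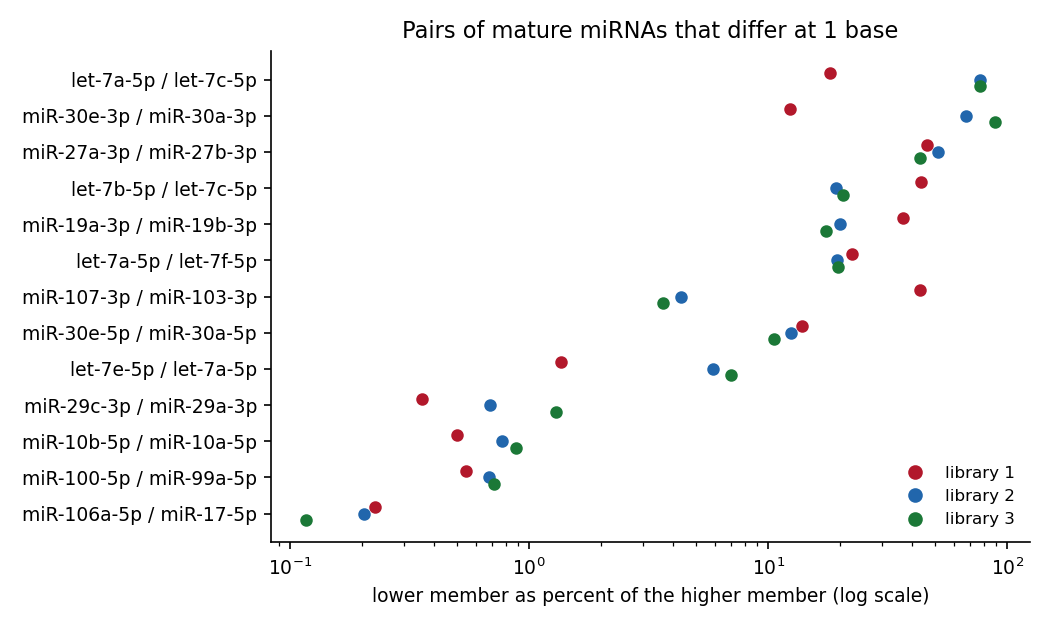
Counts of the lower member as a percent of those of the higher member on a log axis, for the 13 pairs of mature miRNAs that differ at 1 base, with 1 point for each library. MiR-10b-5p beside miR-10a-5p lies between 0.4999% and 0.879%, at place 3 from the lowest by mean.

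In the miR-196 pair the order of abundance was read from few counts. Library 2 had 2 counts of miR-196b-5p and 12 of miR-196a-5p, a ratio of 0.167 with an exact 95% interval of 0.0181 to 0.749. Library 3 had 0 counts of miR-196b-5p and 28 of miR-196a-5p, which bounds the ratio at 0.141 or less (exact 95% limit). Library 1 had neither strand and gives no ratio. No test of this pair over libraries was made.

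The 4 strands with enough counts differed among libraries by more than counting error. In a chi-square test of each miRNA's counts against the library totals, 4 of the 4 members tested were called at an adjusted p below 0.05, with 90.1% of all 353 miRNAs tested called as well. The test compares these libraries and not conditions. The adjusted p was 2.15e-76 for miR-10a-3p, 3.00e-30 for miR-10b-5p and 3.53e-06 for miR-196a-5p, and for miR-10a-5p it was too small for the software to represent. MiR-10b-5p was not called without library 3 (adjusted p = 0.394), and miR-196a-5p was not called without library 1 (adjusted p = 0.118) and had too few counts to be tested without library 2 or library 3. MiR-196b-5p and miR-10b-3p were under the summed count of 30 and were not tested.

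The members did not all follow the same order of libraries. Both 5p strands of miR-10 were highest in library 3, and miR-10a-5p was lowest in library 2. By CPM miR-10b-5p was also lowest in library 2, but its intervals in libraries 1 and 2 overlapped. With TMM or DESeq2 size factors miR-10b-5p was lowest in library 1. MiR-10a-3p was highest in library 1 and lowest in library 3. MiR-10a-5p was 2.29-fold between its highest and lowest library, against a median of 3.60-fold over the 134 miRNAs that averaged 100 CPM or more. The same quotient was 2.62-fold for miR-10b-5p and 7.37-fold for miR-10a-3p. With TMM factors it was 2.72-fold for miR-10a-5p, 4.26-fold for miR-10b-5p and 4.05-fold for miR-10a-3p, against a median of 2.96-fold, so the wider span of miR-10a-3p than of miR-10b-5p depended on the scaling. On the log2 scale the ratio of library 1 to library 2 was 0.78 for miR-10a-5p, 1.78 for miR-10a-3p and 0.16 for miR-10b-5p, and the median of those 134 miRNAs was 0.62. The span of miR-10a-3p is that of library 1 over library 3, with a log2 ratio of 2.88. The median of the 134 was 0.96 there, and 92 of them differed more than 2-fold. Without library 1, the log2 ratio of miR-10a-3p in library 3 over library 2 was -1.10. TMM factors add -0.61 to the log2 value of library 1 over library 2, and -0.86 for library 1 over library 3, in all miRNAs. With them the ratio of library 1 to library 2 was 0.16 for miR-10a-5p and 1.16 for miR-10a-3p, and that of miR-10b-5p turned to -0.45.

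Marker lists of other cell types were read beside these differences. The stromal list, of which 6 of 6 members had a count in at least 1 library, summed to 264, 156 and 154 CPM in libraries 1, 2 and 3, with miR-145a-5p at 0 in library 2. Without miR-199a-3p, its leading member, it summed to 40.2, 30.5 and 39.9 CPM. The erythroid list of miR-451a and miR-144-3p summed to 35.6, 18.1 and 11.2 CPM, highest in library 1 as miR-10a-3p was, with miR-144-3p at 0 in library 3. The epithelial list of 7 miRNAs, all with counts, summed to 103, 473 and 342 CPM, led by miR-200b-3p and miR-200c-3p. Its sum was lowest in library 1, where miR-196a-5p was at 0, but of its members 3 were lowest in library 1, 1 in library 2 and 3 in library 3. The endothelial list summed to 25.9, 44.6 and 25.2 CPM and the muscle list to 2.66, 0 and 2.18 CPM. The part of these cells in the levels of the members was not tested, and in such pools fewer vesicles of a kind and less RNA per vesicle cannot be told apart.

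The other arms of Hox-cluster hairpins were almost absent. Of 5 such arms in the table, miR-196a-1-3p, miR-196a-2-3p, miR-196b-3p and miR-615-5p had 0 counts in all 3 libraries. MiR-615-3p, encoded inside the annotated Hoxc5 span, had 1, 0 and 7 counts, or 0.332 CPM in library 1 and 2.18 CPM in library 3.

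Among 9 further miRNAs known from blood stem cells and progenitors, 8 had a lower mean than miR-10a-5p. The exception was miR-99a-5p, at 171777, 68716 and 50770 CPM in libraries 1, 2 and 3. The next was miR-99b-5p at 4616, 5065 and 5352 CPM, below miR-10a-5p in each library. The lowest were miR-126a-3p, at 21.6, 43.8 and 23.7 CPM, and miR-130a-3p, with 5, 2 and 1 counts. The list as a whole took 18.1%, 8.04% and 5.90% of counts, an order set by miR-99a-5p, since the other 8 summed to 9512 CPM in library 1, 11699 in library 2 and 8244 in library 3. Of the 9, 5 were highest in library 1, 3 in library 2 and 1 in library 3. In the chi-square test 8 of its 8 tested members were called, against 90.1% of all miRNAs tested. The progenitor list shares miR-155-5p with the macrophage list and miR-126a-3p with the endothelial list. Ligation and amplification favour some sequences, so ranks between miRNAs describe the libraries and not molar amounts.

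By seed the families stood very differently in the pool. Of the 1915 names, 1623 had a RefSeq mature sequence. MiR-10a-5p and miR-10b-5p were the only names among these with ACCCUGU at bases 2 to 8, and their summed level was 1.03%, 0.601% and 1.38% of counts in libraries 1, 2 and 3. MiR-196a-5p and miR-196b-5p were the only names with AGGUAGU at bases 2 to 8, and summed to 0, 5.62 and 8.73 CPM. The same 7 bases stood 1 base further along, at bases 3 to 9, in 9 miRNAs, of which 8 were let-7 family members including miR-98-5p. Those 9 took 8.76%, 21.8% and 23.8% of counts. At bases 1 to 7 they stood in miR-3962, which had 16, 10 and 6 counts.

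The miRNAs with the most similar profile were sought among those averaging 100 CPM or more, by Euclidean distance of centred log2(CPM + 1) values over the 3 libraries. For miR-10a-5p these were miR-151-3p (distance 0.0946), miR-361-3p, miR-106b-3p, miR-320-3p and miR-183-5p (0.416). MiR-151-3p had 6900 CPM in library 1, 3893 in library 2 and 9767 in library 3. For miR-10b-5p they were miR-148a-3p (0.0967), miR-1981-5p, miR-183-5p, miR-139-5p and miR-423-5p (0.548). For miR-10a-3p they were miR-181b-5p (0.102), miR-93-5p, miR-140-3p, miR-152-3p and miR-674-5p (0.454). MiR-183-5p was the single name shared by the 5p strands, and the list of miR-10a-3p held none of the names listed for miR-10a-5p. Each list of 5 was drawn from 133 or 134 candidates, so unrelated lists would seldom share a name. The overlap was not tested. With 3 libraries such likeness is a description of these pools.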

How the data were processed

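Small RNA libraries were made, per the labels' protocols, by ligating adapters to exosome RNA, amplification and gel selection, and were sequenced as single reads of 50 bases. Per the submitters' processing notes, bcl2fastq and BWA were used with the mm10 build, and no version is stated. Trimming, mismatch limits, the miRNA release and the treatment of reads with several matches are not given in the sources used here. The authors deposited for each library a whole-number count per miRNA and an RPM value. Worked out from the columns, the deposited RPM divides by totals of 14047692 (library 1), 13995845 (library 2) and 14002577 (library 3), of which the miRNA counts are only a part.

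CPM is each count over the summed miRNA count of its library. The members and lists were chosen with earlier results of these data known. The named miRNAs are the 6 members, other Hox-cluster arms, a progenitor list, miRNAs sharing a seed, the 5 nearest profiles of each member with at least 10 counts in every library, and at most the 2 highest markers of each list; the pairs at 1 base, the neighbours in rank and the markers at 0 were added after the values were seen. The chi-square test took miRNAs whose counts summed to 30 or more. Of 749 precursors with both arms in the table, edgeR 4.0.16 tested those summing to 60 or more, with library and arm as terms. The test of strand balance required at least 15 counts of the minor strand. P-values were adjusted by Benjamini-Hochberg over all features tested. Alternatives were TMM factors, size factors and a Wald test from DESeq2 1.42.0, the RPM, other count minimums, a pseudocount and leaving out each library. Intervals are Wilson or exact (scipy 1.17.1) at 95%.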

Additional observations from a re-analysis of the deposited data

How the results depend on the processing

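The summed level of the 6 strands depended on miR-10a-5p, without which the other 5 took 0.0139% of counts in place of 1.01%. With TMM factors, DESeq2 size factors or the deposited RPM brought to the same overall scale, the mean of every strand moved by less than its SD. The ratio of library 1 to library 2 for miR-10b-5p reversed, from 0.16 to -0.45 (TMM) and -0.49 (DESeq2), because these factors shift all miRNAs alike. Leaving out each library in turn left 2 to 3 members called: 3 of 4 tested without library 1 (61.5% of all miRNAs tested), 3 of 3 without library 2 (86.9%) and 2 of 3 without library 3 (87.5%). Strand balance differed among libraries for 83 of 95 precursors (87.4%) in the main run. Without library 1 it did so for 44 of 80 (55.0%). The counts were 70 of 89 without library 2 (78.7%) and 69 of 90 without library 3 (76.7%). Over all miRNAs the chi-square calls were 177 without library 1, in place of 318. The log2 5p to 3p ratio stayed called in every alternative run, at 6.79 to 8.42 for miR-10a. For miR-10b the fitted values, 8.67 to 10.1, depend on the prior count, and the highest has no 3p count behind it. The miR-196 ratio has no value without library 2. No paired analysis was possible because there is 1 group and so no pair of groups with shared numbers (strands were compared within libraries). The depth limits strands under 3 counts, 0.935 to 1.205 CPM, which concerns miR-196b-5p, miR-10b-3p and, in library 1, miR-196a-5p.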
